A study of Homo sapiens with 4 samples.

Results

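The melanocortin 1 receptor gene MC1R, its ligand genes POMC and ASIP and the accessory protein genes ATRN and MGRN1 were examined in maps of TBX3 binding. The maps were made by sequencing DNA recovered by chromatin immunoprecipitation (ChIP-seq) from 501mel, an established human melanoma cell line. Per the labels, 2 samples were precipitated with anti-HA antibody 12CA5 from cells with TBX3-3xHA, a T-box transcription factor carrying a short peptide tag, and 2 were input chromatin. How the tagged protein was expressed, and whether replicates came from separate cultures, are not given in the sources used here. A list of peak summits was analysed for each ChIP replicate, and input was not analysed here, so no background signal could be set beside a summit. The members were all summits whose nearest gene in the deposited annotation was one of the 5 genes, with all summits within 100 kb of the MC1R summit nearest its transcription start site (TSS). This gave 7 of 32479 summits in replicate 1 and 12 of 40494 in replicate 2. Summits of the 2 lists that were each other's nearest and lay within 200 bp were called a recurrent region, and 3 of the 22702 recurrent regions were members.

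MC1R is a receptor of melanocytes that couples through the stimulatory G protein to cAMP, and its activity shifts pigment synthesis towards the dark eumelanin. POMC encodes the precursor of its peptide agonists, among them α-melanocyte-stimulating hormone, and ASIP, the agouti signalling protein, is an antagonist that favours the red to yellow pheomelanin. Attractin (ATRN), a transmembrane protein, and MGRN1, an E3 ubiquitin ligase, are needed for normal agouti signalling or pigment type in mice. The title of the series links TBX3 to a loss of MC1R signalling and to pheomelanin. The data bear on where tagged TBX3 was found at the genes of this signalling system, and they hold no measure of expression.

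T-box proteins recognise DNA with the core GGTGTGA. It was searched on both strands in the RefSeq promoter windows of the 5 genes (GRCh38.p14, 250 bases before to 50 bases after each start site, 6 windows with a pair for ASIP). The only match lay upstream of MC1R, 138 bp before the RefSeq start site, and the same window held CATGTG, an E-box of the type bound by MITF, 64 bp before it. The stretches are shown because they hold these matches, in the promoter window of the gene with the strongest member summit. Both are on the plus strand, with the match in capitals, at chr16:89918714-89918740 for the T-box core and chr16:89918788-89918814 for the E-box.
MC1R T-box core: ggagatccgcGGTGTGAgggaccccct
MC1R E-box: acgcccccggCATGTGgccgccctcag
Over all 35116 promoter windows of this length, 3.45% held GGTGTGA and 11.1% held CATGTG. Of the 404 windows that contained a recurrent summit, 7.18% held GGTGTGA (95% Wilson interval 5.04% to 10.1%) and 20.0% held CATGTG (16.4% to 24.2%). The MC1R window did not contain its summit, which lay 682 bp from the middle of the T-box core and 756 bp from that of the E-box. The sequence under the summits themselves was not read, so these matches describe the letters of a neighbouring window. The shorter core GGTGTG, which every GGTGTGA contains, also occurred in the ATRN window. It was found in 16.8% of all windows and in 20.5% of the 404 (16.9% to 24.8%). The cAMP response element TGACGTCA was in none of the 6 windows. It was in 1.85% of all windows and in 2.72% of the 404 (1.53% to 4.81%). Its short form TGACG, which also lies inside TGACGTCA, was found in the ATRN and MGRN1 windows. That form was in 24.6% of all windows and in 28.5% of the 404 (24.3% to 33.1%).

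At the receptor gene itself, both lists placed a summit at the same base, 89918045 on chromosome 16 (hg38). The deposited score, a value per peak whose scale is not stated, was 168.3 in replicate 1 and 170.9 in replicate 2. Scores were read only within their own list. There the summit ranked 795 and 1652, so that 2.45% of the replicate 1 summits and 4.08% of the replicate 2 summits scored at least as high. It was among the strongest summits of either list, and stood somewhat higher in that of replicate 1. Identical positions were uncommon, since 293 regions (1.29%) had their paired summits at the same base and the median distance was 28 bp.

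The position of this summit relative to MC1R depended on the annotation. The deposited annotation put it 166 bp downstream of the TSS, in the 5′ untranslated region of a transcript of 1 exon, and so implied a start at 89917879. In the RefSeq table of GRCh38.p14 MC1R spans 89918862 to 89920972 on the plus strand, and its start lies 983 bp further downstream. By that table the summit was 817 bp upstream of MC1R and inside the span of LOC124903759 (89911659 to 89918970, plus strand), a gene model that overlaps the start of MC1R. A gap of that size was not common, as 6.6% of 8415 transcripts nearest to replicate 1 summits had a deposited start at least as far from the nearest RefSeq start of their gene. Of these transcripts, 76.7% agreed within 100 bp.

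Summits annotated to a 5′ untranslated region numbered 92 in replicate 1 and 86 in replicate 2. The MC1R summit had the score in place 2 of the former and place 8 of the latter. Among 597 protein-coding genes with a recurrent region within 1 kb of a TSS, MC1R stood in place 28 by the sum of its ranks in both lists, with 19 genes ahead of it in replicate 1 and 33 in replicate 2. The median region of these genes was at 25.1% of the replicate 1 list and 21.2% of the replicate 2 list, counted from the highest score. The next gene in this order, in place 29, was TBX3 itself, with ranks of 873 and 1674.

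**Figure D1:**
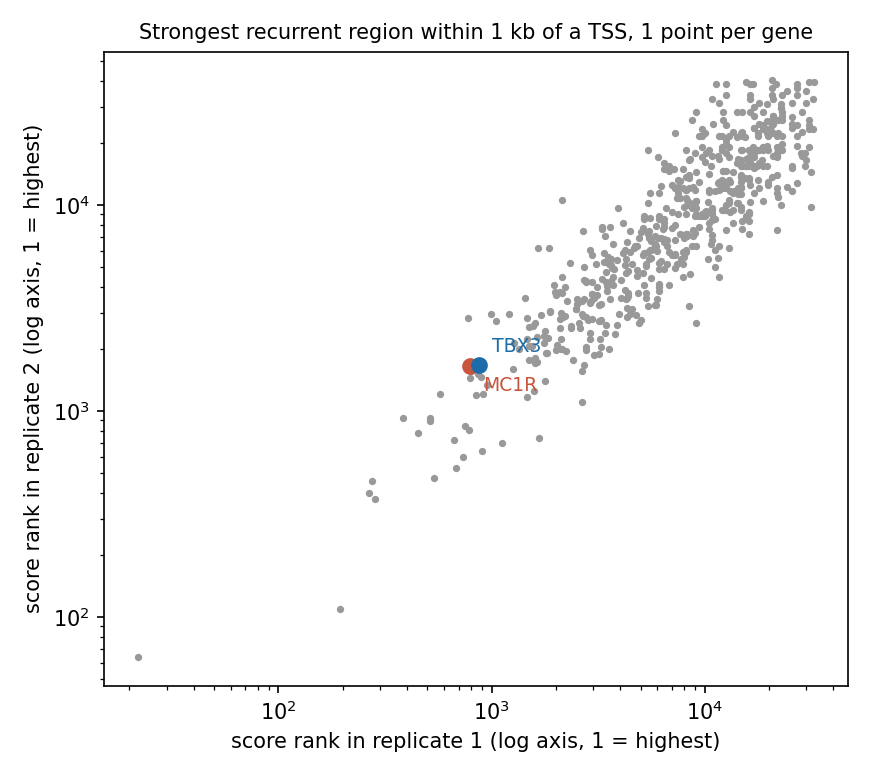
Score rank in replicate 1 (x axis, logarithmic) against replicate 2 (y axis, logarithmic) of the strongest recurrent region within 1 kb of a TSS, with 1 point for each of 597 protein-coding genes. MC1R at ranks 795 and 1652 and TBX3 at 873 and 1674 lie together near the strong end of the cloud.

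Upstream of the receptor a further recurrent region had summits at 89906955 in replicate 1 and 89906950 in replicate 2, 5 bp apart. In the deposited annotation its nearest TSS was that of MC1R, at 10924 bp and 10929 bp, but it lay inside the neighbouring gene TCF25, in intron 15 of 17. By the RefSeq table the start of LOC124903759, at 89911659, lay between this region and MC1R and was nearer to it. The scores were 38.4 and 52.4, and 19.7% and 17.5% of the lists scored at least as high. This region was therefore in the upper part of both lists but well below the summit at MC1R.

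Replicate 2 held another summit between these regions, at 89915393 and 2486 bp upstream of the deposited MC1R start. By the RefSeq table this summit was 3469 bp upstream of MC1R and inside the span of LOC124903759. It scored 55.6, with 16.6% of the list at least as high, which is above the recurrent region in TCF25. No replicate 1 summit lay closer to it than 2652 bp, the distance to the MC1R summit. A summit in intron 3 of 17 of TCF25, at 89884924, scored 64.3 in replicate 2 and had no replicate 1 summit within 22031 bp. Both were in the second highest score decile of replicate 2, of which 96.6% recurred and 138 of 4049 summits did not. The locus thus held a pair of the uncommon summits that scored high in replicate 2 and were absent from the list of replicate 1. They were singled out after their values were seen.

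Downstream of the MC1R summit no further summit was listed for 77.0 kb in replicate 1 and 77.4 kb in replicate 2. That stretch covers the RefSeq spans of MC1R, TUBB3, which encodes a β-tubulin, and DEF8, and no summit fell in any of them. It ended at summits in the last exon of the pseudogene AFG3L1P, assigned to DBNDD1 by nearest TSS. The replicate 1 summit, at 89995061, scored 6.0, with 79.1% of the list at least as high. The replicate 2 summit, at 89995435, scored 15.6, with 47.0% at least as high. They lay 374 bp apart and so did not count as recurrent. Within 100 kb of the MC1R summit there were 3 summits in replicate 1 and 5 in replicate 2, that summit included, of which 2 recurred. The share that recurred was 66.7% in replicate 1 and 40.0% in replicate 2, against 69.9% and 56.1% of the whole lists. The median summit outside satellite repeats had 4 summits within 100 kb in replicate 1 and 5 in replicate 2, counted in the same way. The receptor locus was thus no denser in summits than the surroundings of a typical summit.

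Just outside the window, 3 recurrent regions lay in introns of DRC4 and were assigned to DBNDD1 or GAS8-AS1 by nearest TSS. They were at 103.1, 114.5 and 118.1 kb from the MC1R summit in replicate 1. The farthest, at 90036110 and 90036127, scored 157.7 in replicate 1 and 235.4 in replicate 2, with ranks of 899 and 932, and it stood above the MC1R summit in replicate 2 and below it in replicate 1.

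**Figure D2:**
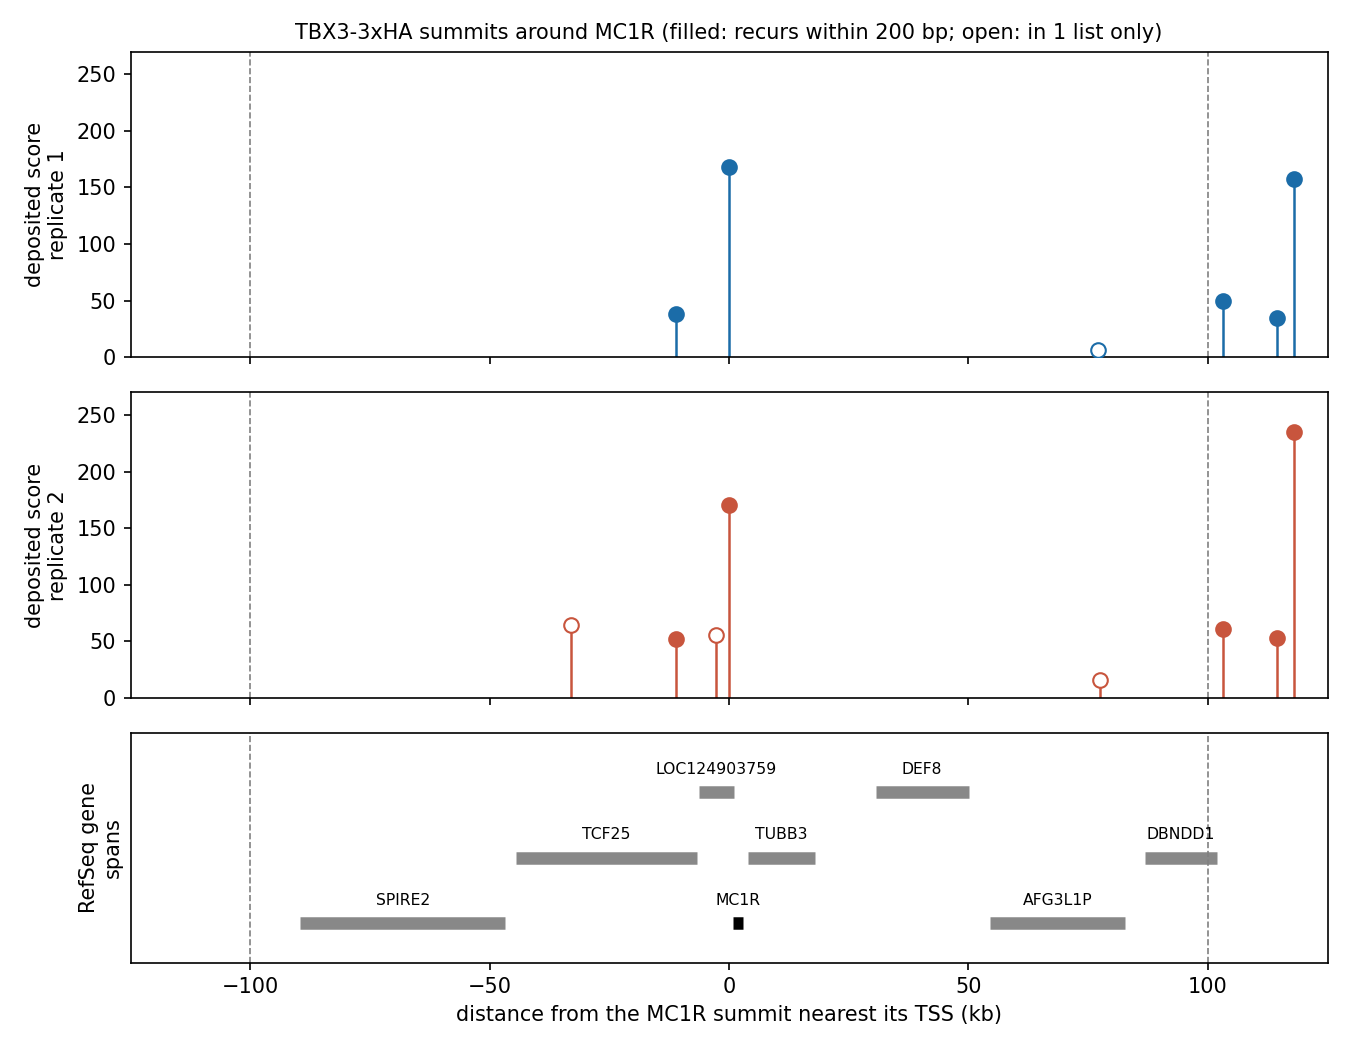
Deposited score of each summit (y axes, replicate 1 above and replicate 2 below) by distance in kb from the MC1R summit nearest its TSS (x axis), with RefSeq gene spans underneath and dashed lines at 100 kb. Filled points recur within 200 bp and open points are in 1 list only; the summit at MC1R reaches 168.3 and 170.9, and no summit stands over TUBB3 or DEF8.

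Of the ligand genes, POMC had 2 summits in each list, of which 1 region recurred. Its summits at 25123880 and 25123913 on chromosome 2 were 33 bp apart, and scored 30.3 in replicate 1 and 46.0 in replicate 2. They ranked 7928 and 8006, with 24.4% and 19.8% of the lists at least as high. The region was assigned to POMC because its TSS was nearest, at 44971 bp and 44938 bp, but it lay in intron 5 of 22 of EFR3B. In the RefSeq table POMC spans 25160860 to 25168580 on the minus strand, so the region was 36980 bp beyond the end of the gene in replicate 1. The other POMC summits did not recur. The replicate 1 summit at 25184177, 15326 bp upstream of the TSS and within an L2 element, scored 6.43. The replicate 2 summit at 25113075, in intron 4 of 22 of EFR3B, scored 12.0. No summit of either list fell within the POMC gene.

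ASIP, the antagonist gene, had 2 summits in each list and no recurrent region. In replicate 1 they were at 34260443 on chromosome 20, 78 bp from the deposited TSS and annotated as promoter, and at 34262533, in intron 1 of 2. Their scores were 3.62 and 5.68, and 94.9% and 82.9% of the list scored at least as high. The replicate 2 summits lay elsewhere, at 34252750 within an LTR5B element and at 34249314 within a simple repeat, with scores of 7.62 and 4.28. The nearest summits of the 2 lists were 7693 bp apart. All 4 summits were thus among the weaker ones, and none was found again.

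The promoter label of the ASIP summit also followed from the annotation used. The deposited start of ASIP was at 34260365, whereas the RefSeq windows start from 34194562 and 34241423, a gap of 18942 bp to the nearer one. The RefSeq span of ASIP runs from 34186493 to 34269344 and holds all 4 summits, including both that were deposited as intergenic. From the nearest RefSeq start, the promoter summit was 19020 bp downstream.

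ATRN was named for 3 summits in replicate 2 and for none in replicate 1. They were at 3452770, 3455105 and 3477408 on chromosome 20, each in a repeat element, at 18248 bp and 15913 bp upstream of the TSS and at 6390 bp downstream in intron 1 of 28. Their scores of 5.55, 6.22 and 4.28 placed them at 84.0%, 80.1% and 91.6% of the list from the highest score, and the nearest replicate 1 summit was at least 32280 bp away. Naming by nearest TSS missed the far part of this long gene, which spans 3471018 to 3651118. A recurrent region lay inside ATRN at 3616431 and 3616507, 76 bp apart, where a shorter ATRN transcript ends, and it was assigned to GFRA4. It scored 7.12 in replicate 1 and 12.2 in replicate 2, with 74.3% and 55.0% of the lists at least as high. This was the only recurrent region within the RefSeq span of any of the 5 genes. It scored below the median of both lists, which was 12.4 in replicate 1 and 13.9 in replicate 2. Single summits assigned to GFRA4 also lay in intron 24 of ATRN in replicate 1 and in intron 17 in replicate 2.

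MGRN1 had no summit in either list. Its span, 4624826 to 4690972 on chromosome 16, held none under any other gene name. The nearest was a recurrent region in an exon of C16orf96, at 4592323 and 4592346, 32503 bp and 32480 bp before the MGRN1 start, with scores of 54.5 and 76.0. Beyond its end the nearest summit was 168726 bp away in replicate 1 and 168748 bp away in replicate 2.

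**Figure D3:**
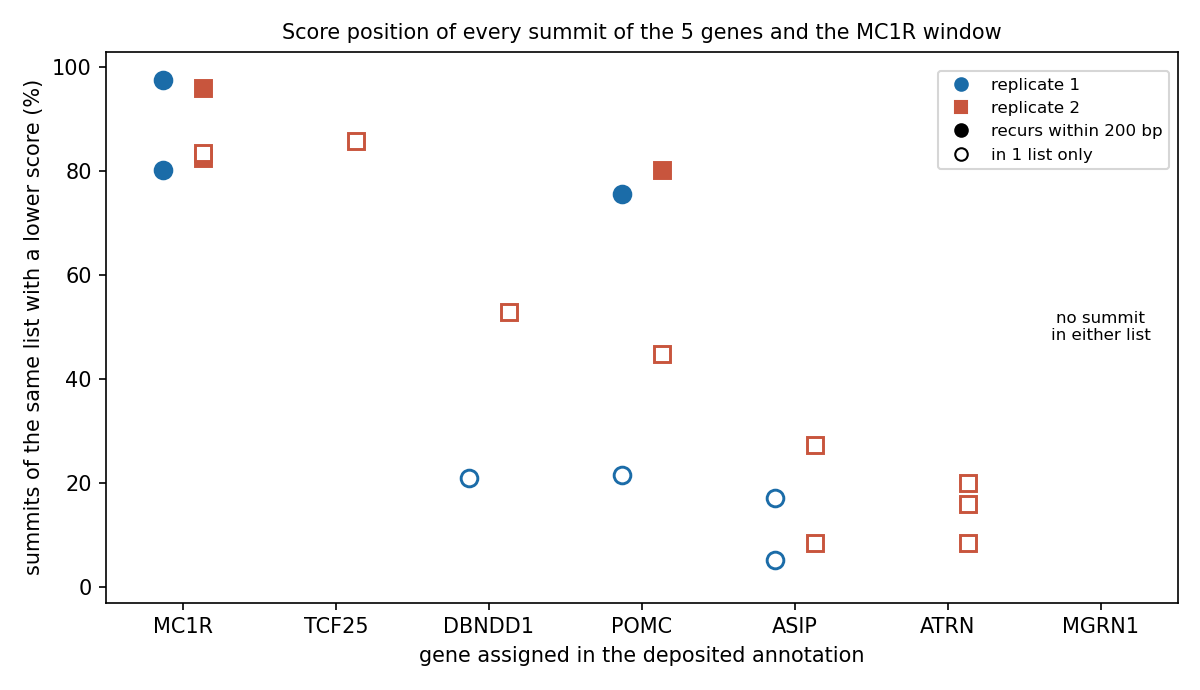
Percentage of the same list with a lower score (y axis) for every summit of the 5 genes and the MC1R window, by assigned gene (x axis); circles are replicate 1 and squares replicate 2, filled where the summit recurs within 200 bp and open where it does not. MC1R and POMC hold the 3 recurrent regions, the 4 ASIP and 3 ATRN summits are open and low, and MGRN1 has none.

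Counted over the 5 genes, 3 of 6 replicate 1 summits recurred (50.0%, Wilson interval 18.8% to 81.2%), against 69.9% of all summits in that list. In replicate 2, 3 of 10 recurred (30.0%, 10.8% to 60.3%), against 56.1% of all. The intervals include the shares of the whole lists and cover counting error only. Recurrence followed the score over all summits, from 20.0% in the lowest decile of replicate 1 to 98.8% in the highest. The ASIP summits of replicate 1 were in deciles with 20.0% and 34.5% recurrence. The ASIP and ATRN summits of replicate 2 were in deciles with 18.3% and 26.6%. The 3 recurrent regions were in deciles from 94.6% upwards in both lists.

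**Figure D4:**
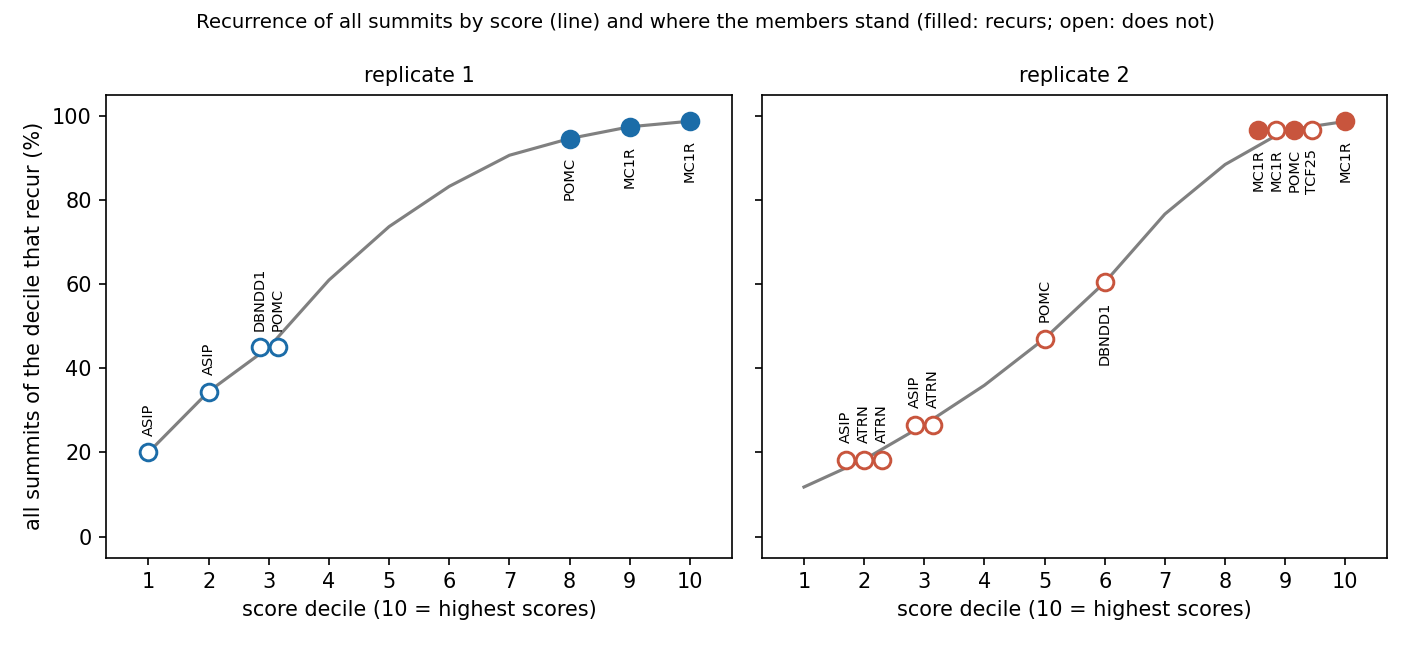
Percentage of all summits that recur within 200 bp (y axis, grey line) by score decile (x axis, 10 is the highest), for replicate 1 (left) and replicate 2 (right), with the members placed on the line at their decile. Filled members recur and stand at 94.6% or above, and open members do not; in replicate 2 a summit of MC1R and that of TCF25 are open at 96.6%.

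By gene, 2 of the 5 had a recurrent region at any distance, against 28.6% of 19974 protein-coding genes. MC1R alone had one within 10 kb of a TSS, against 10.1% of genes, and within 1 kb, against 2.99%. A count of 1 or 2 among 5 genes is too small to be set apart from these shares.

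Of 27 other genes of melanocortin signalling, 3 had a recurrent region within 10 kb of a TSS (11.1%, Wilson interval 3.85% to 28.1%), which is near the 10.1% of all genes. The strongest belonged to MC3R, a melanocortin receptor best known from the brain. Its summits at 56250132 and 56250151 on chromosome 20 lay 1400 bp and 1419 bp downstream of the TSS, at the end of the gene, and scored 115.6 and 306.3 with ranks of 1579 and 553. PAM, the enzyme that amidates peptide hormones including those cut from POMC, had summits 198 bp and 168 bp from a TSS, at 102866021 and 102865991 on chromosome 5, with scores of 44.8 and 51.4. DEFB103A, which encodes β-defensin 3, another MC1R ligand, had 2 regions within 10 kb, scoring 6.43 and 10.0 in replicate 1 and 7.62 and 14.8 in replicate 2. The replicate 2 list named the near-identical copy DEFB103B for both, so the assignment between the copies is uncertain. At any distance 12 of the 27 genes had a recurrent region (44.4%, 27.6% to 62.7%), against 28.6% of all protein-coding genes. They were the 3 above with MC4R, MRAP, AGRP, ATRNL1, PCSK1, PCSK2, GNAS, CREB1 and CRTC3. Regions were counted under the gene that replicate 1 named, and so DEFB103B, PRCP, ARRB1 and SIK2 had summits but no recurrent region. The DEFB103B summits that replicate 2 paired with the 2 DEFB103A regions did recur. The other 11, MC2R, MC5R, MRAP2, CPE, ARRB2, GRK2, GRK6, ZDHHC13, LYPLA2, CRTC1 and CRTC2, had no summit in either list.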

How the data were processed

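Peak lists of 2 ChIP samples were used, and the members, gene list and motifs were chosen with earlier results of these data known. Summits of 1 sample were annotated on hg38 with annotatePeaks.pl of HOMER to give a list, per the file headers, and start equalled end in every entry. The submitters' processing notes name FastQC 0.11.7, cutadapt 2.8, Bowtie2 2.3.5, MACS2 2.1.2 and SAMtools 1.9. The control and threshold of peak calling are not given in the sources used here. Each entry has a peak score made by the authors. Its scale is not stated, and the lowest values were 2.01 and 2.00. Positions, distances to the TSS and nearest genes are as deposited by the authors. Read depth is unknown, and the number and score of peaks can depend on it.

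From these files, summits were paired when mutually nearest and within 200 bp. A rank is 1 plus the number of summits with a higher score, and ties at a decile boundary were split by file order. Genes were matched by Entrez identifier to the RefSeq table of GRCh38.p14, whose coordinates are those of hg38, and 421 and 449 summits had no identifier. Start sites implied by the deposited distances were compared with strand-aware RefSeq starts. No test between conditions was possible with 1 ChIP condition, and no p-value was computed. Intervals are 95% Wilson intervals. All 5 genes, all genes named in the MC1R window and all listed signalling genes with a recurrent region within 10 kb were named. The pairing was tested on simulated data. Analyses used Python 3.11.15, pandas 2.3.3, NumPy 2.4.6 and matplotlib 3.10.9. Alternatives covered the pairing distance, score limits, each list alone, windows, gene spans and score backgrounds.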

Additional observations from a re-analysis of the deposited data

How the results depend on the processing

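No paired analysis was possible because the input samples carried no list and 1 ChIP condition gives no comparison between groups. Of 46 alternatives, 20 left a count within 1.5 times its value, or the recurring share within its 95% interval. The other 26 moved. Among them were all alternatives for the score percentile of the MC1R summit, which was judged by its own 95% interval. The 3 regions, 2 genes and 2 regions in the window were the same in number for pairing within 50 bp and for the upper-scoring part of each list, from its median. Pairing within 500 bp kept the regions and genes in number but gave 3 regions in the window, as the summits in AFG3L1P then paired. Pairing at the same base left 1 region, 1 gene, 1 region in the window, a recurring share of 16.7% and 0 signalling genes, since it keeps few pairs. The 5000 highest scores of each list left 1 region, 1 gene, 1 region in the window and 1 signalling gene, with a share of 100% of 1 summit. At or above the median score the share was 100% of 3 summits. Without replicate 1 or without replicate 2, summits of the remaining list numbered 10 and 6 for the 5 genes and 5 and 3 in the window. They covered 4 and 3 of the 5 genes, and 5 and 4 of the signalling genes. ASIP entered with either list alone and ATRN with replicate 2 alone. A limit of 10 kb or of 1 kb to the TSS left 1 gene, as did 10 kb to a RefSeq start, an alternative added after seeing the data. With RefSeq spans extended by 10 kb the counts were 2 regions and 2 genes, but the genes were MC1R and ATRN in place of MC1R and POMC. A window of 250 kb held 7 recurrent regions. Signalling genes with a region numbered 1 within 1 kb and 12 at any distance. The score percentile of the MC1R summit, 97.6 and 95.9 in the lists, moved to 97.3 and 95.3 outside satellites, and to 97.3 and 95.1 among promoter and 5′ untranslated region summits. Unknown depth limits all counts, so a gene without a summit is not shown to be unbound.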

Other observations

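Regions far from a TSS held the highest ranks among the listed signalling genes, and the following were singled out after their values were seen. PCSK2, which encodes a convertase that cuts POMC into its smaller peptides, was the gene nearest to 5 recurrent regions, all upstream of it. The strongest had summits at 17190529 and 17190534 on chromosome 20, in intergenic sequence 35578 bp and 35573 bp upstream of the TSS. It scored 255.4 in replicate 1 and 392.3 in replicate 2, with ranks of 338 and 310, both above those of the MC1R summit. CRTC3, a coactivator of CREB that responds to cAMP, had 5 recurrent regions in intron 2 of 14. The strongest, at 90584005 and 90584003 on chromosome 15, lay 54119 bp downstream of the TSS in replicate 1, and scored 192.7 and 381.5 with ranks of 627 and 333. The weakest of the CRTC3 regions differed most between the lists, with 60.5% of the replicate 1 list and 97.8% of the replicate 2 list scoring at least as high. MC4R had 3 recurrent intergenic regions, the nearest of them 50116 bp from its TSS in replicate 1. Whether any of these regions acts on the gene named cannot be told from distance to a TSS.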
